A study of Homo sapiens with 6 samples.

Results

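The genes described here are 33 established targets of the tumour suppressor p53, chosen by symbol and grouped by what they do (cell cycle arrest, cell death, DNA repair, metabolism and feedback on p53). They were chosen with earlier results of these data known. All 33 were among the 14168 genes of the deposited table, and all 33 were among the 13206 genes expressed highly enough to be tested. They were measured by RNA-seq of polyadenylated RNA in 6 libraries of BJ, an established line of human foreskin fibroblasts with the genotype label WT. The cells of 3 libraries had received a control siRNA and those of the other 3 an siRNA against agrin (gene AGRN, a large heparan sulfate-bearing protein of basement membranes). All cells were grown in RPMI medium with serum. The siRNA sequences, doses and harvest times are not given in the labels, and a single cell line was used. Nothing says that replicates are separate cultures, so the p-values rest on the spread between libraries of a group, and that spread may be technical.

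p53 is a transcription factor that is kept scarce in unstressed cells by the ubiquitin ligase MDM2. When DNA damage, nucleolar stress or other signals release it, p53 binds paired decamers in the DNA near its targets and raises their transcription. In dermal fibroblasts the known outcome is more often arrest or senescence than apoptosis, and CDKN1A (p21), an inhibitor of cyclin-dependent kinases, is its best known effector. MDM2 and the phosphatase PPM1D are themselves targets and act back on p53.

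The paired decamers that p53 binds were looked for in the RefSeq promoter sequences (GRCh38.p14, 250 bases before to 50 after each annotated start), to show which members carry such an element next to an annotated start. Of the 33 members, 27 had at least 1 promoter sequence, 38 windows in all. The search used the p53 decamer consensus, kept the central C and G of each decamer fixed, allowed 0 to 13 bases between the decamers and up to 2 mismatches over their 20 letters, and needs only 1 strand because the consensus is its own reverse complement. Such a pair was found in 5 of the 27 genes (18.5%), and in 3.62% of all 27305 genes with a promoter sequence. Counted by window, with the MDM2 pair counted at each of the 2 MDM2 starts whose windows hold it, it was found in 6 of 38 (15.8%) and in 2.93% of all 35116. With up to 3 mismatches the contrast was smaller, at 9 of the 27 genes (33.3%) beside 15.3% of all genes, and the genes then added were GDF15, PLK2, SESN1 and ZMAT3. The 5 pairs are shown 5′ to 3′ on the strand of the gene, with the decamers in capitals and any bases between them in lower case.
DDB2 (chr11:47214979-47214999, plus strand, 0 mismatches): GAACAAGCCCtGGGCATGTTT
MDM2 (chr12:68808923-68808942, plus strand, 2 mismatches): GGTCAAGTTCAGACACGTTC
FAS (chr10:88991309-88991328, plus strand, 2 mismatches): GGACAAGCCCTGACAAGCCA
AEN (chr15:88621306-88621325, plus strand, 2 mismatches): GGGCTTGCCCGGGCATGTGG
FDXR (chr17:74872996-74873025, minus strand, 2 mismatches): GGGCGGGCCCgggcaggagcGGGCTTGCCC
The DDB2 pair was the only 1 among the members with 0 mismatches, and 10 of all 35116 windows had such a pair. A match describes these letters and does not show binding, and many known p53 elements lie in introns or farther upstream, outside these windows.

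The siRNA target was checked first. Levels are given as scaled CPM, the deposited CPM values with the authors' scaling, in the order of replicates 1, 2 and 3. AGRN was at 744, 804 and 790 scaled CPM in the controls and at 290, 297 and 265 with the agrin siRNA. The agrin siRNA libraries thus kept 36.4% ± 2.13 (SD, n = 3) of the control mean, and AGRN was lower in every library labelled agrin siRNA than in every control. Reads on listed genes numbered 42736368 to 48246613 per library, and the agrin siRNA libraries differed more among themselves than the controls did (median SD over all tested genes 0.08 against 0.05 on the log2 scale). All 10 fibroblast markers were present, with a summed level of 51570 to 54268 in the control and 49197 to 51585 in the agrin siRNA libraries, and COL1A1, PDGFRB, LUM and FAP among them were lower. The COL1A1 call (limma adjusted p = 0.0429) was lost in 5 of the 14 alternatives, with no filter on low values and without each control library or agrin siRNA replicate 3, and the LUM call without control replicate 1. Of the marker lists of other cell types, the epithelial, endothelial, immune and melanocyte lists each summed to at most 47.5 in any library, and 0 of 5 muscle markers were listed. KRT19, a keratin, was at 39.3 to 46.7 and 25.5 to 35.1 (lower, limma adjusted p = 0.0158, lost in 3 of the 14 alternatives). The other 4 epithelial markers stayed below 1. CD14 was the 1 immune marker listed of 5, at 1.32 to 1.70 and 2.30 to 2.72. It was called higher (limma adjusted p = 0.0039), a call lost in 0 of the 14 alternatives. Of 5 endothelial markers CDH5 was at 0 in every library and TEK at 7.52 ± 0.448 and 8.45 ± 0.748 (SD, n = 3). Of 5 melanocyte markers 2 were listed: PMEL was at 1.29 to 1.68 and 1.18 to 1.51, and MITF was at 26.9 to 29.8 and 22.6 to 27.2 (lower, limma adjusted p = 0.0446, lost in 6 of the 14 alternatives). The part of these shifts in the results below was not tested.

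Most of the p53 targets were higher with the agrin siRNA. Of the 33 members, 23 rose, 1 fell and 9 did not pass the threshold (limma, Benjamini-Hochberg adjusted p under 0.05 over all tested genes). Over all 13206 tested genes, 15.2% were higher and 13.5% lower. The changes were modest: the median log2 fold change of the members was 0.31, the largest was 0.66, and 0 members reached 2-fold, beside a median of 0.00 over all tested genes. In 24 members every agrin siRNA library lay above every control library, which was so for 23.7% of all tested genes, and in 1 member every agrin siRNA library lay below (21.5% of all tested genes). When the libraries were rescaled without mitochondrial genes and without the top 10 genes by level, the higher genes made up 41.1% of all calls instead of 52.9%, and 22 members were still called higher. RNA per cell and the share of responding cells cannot be told apart in these bulk libraries.

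**Figure D1:**
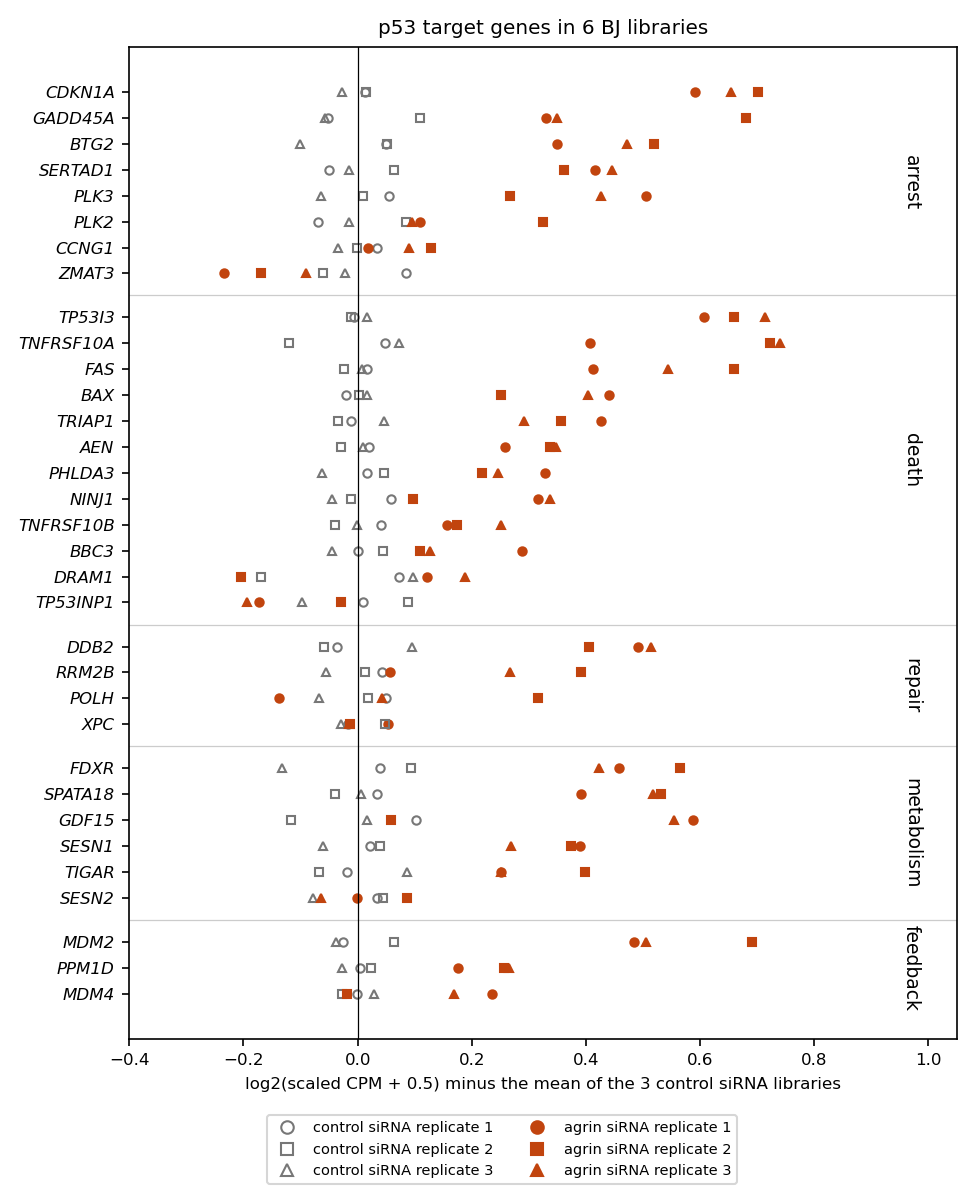
Level of each of the 33 p53 targets in each library, as log2(scaled CPM + 0.5) minus the mean of the 3 control siRNA libraries, ordered by role and by mean change; open grey symbols are control siRNA and filled symbols agrin siRNA libraries, with 1 shape per replicate number. Agrin siRNA libraries lie to the right of the controls for 24 members, and ZMAT3 is the 1 member where they all lie to the left.

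**Figure D2:**
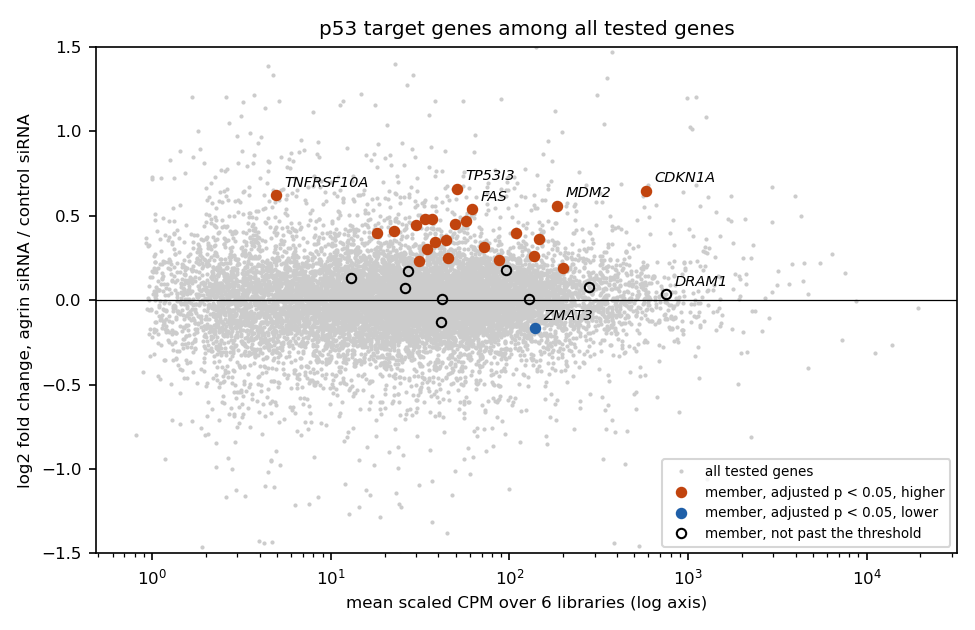
Log2 fold change (agrin siRNA over control siRNA) against the mean scaled CPM over 6 libraries (log axis) for all 13206 tested genes in grey and the 33 p53 targets in colour; 19 genes lie beyond the vertical limits of 1.5. Members called higher run from TNFRSF10A at a mean of 4.94 to CDKN1A at 579 scaled CPM; DRAM1, the most abundant member, was not called.

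Genes of cell cycle arrest mostly rose. Of 8 members, 5 were higher, 1 was lower and 2 did not pass. The shares of all tested genes, 15.2% higher and 13.5% lower, stand beside this and each role count below. CDKN1A, at 148 scaled CPM per kilobase of exon in the control group the second most abundant member per length, was at 455, 455 and 442 scaled CPM in the controls and at 679, 733 and 709 with the agrin siRNA. All 3 agrin siRNA libraries were far above the controls, a rise of 56.9% with a log2 fold change of 0.65 and a standard error of 0.04 (limma adjusted p = 1.43e-05). Of all tested genes, 1.23% had a larger increase than CDKN1A. GADD45A, which inhibits the CDK1 kinase complex and promotes repair, was at 40.4, 45.2 and 40.2 in the controls and at 52.7, 67.4 and 53.5 with the agrin siRNA, where replicate 2 stood above the other two (log2 fold change 0.45 ± 0.09 SE, limma adjusted p = 0.0056). BTG2, an antiproliferative partner of mRNA deadenylases, rose from 25.5 ± 1.54 to 34.9 ± 2.12 scaled CPM (SD, n = 3; log2 fold change 0.45). SERTAD1, a regulator of CDK4 and E2F activity, rose from 19.3 ± 0.801 to 25.8 ± 0.787 (0.41), and the polo-like kinase PLK3 from 15.6 ± 0.672 to 20.8 ± 1.77 (0.40).

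The other 3 arrest genes did not rise by this test. CCNG1, the cyclin G1 that recruits phosphatase to MDM2, was abundant at 272 ± 6.44 in the controls and 287 ± 11.2 with the agrin siRNA, with overlapping groups (log2 fold change 0.08, 95% interval -0.01 to 0.17, limma adjusted p = 0.188). PLK2, another polo-like kinase, was at 85.6, 95.3 and 89.0 in the controls and at 97.0, 113 and 96.0 with the agrin siRNA (0.18, limma adjusted p = 0.0751), and passed without agrin siRNA replicate 1 (adjusted p = 0.0468). ZMAT3, an RNA-binding zinc finger protein that controls splicing and mRNA decay, was the 1 lower member, at 156, 141 and 145 in the controls and 125, 131 and 138 with the agrin siRNA (-0.16, limma adjusted p = 0.0399). That call was lost without each control library or agrin siRNA replicate 1, with adjusted p from 0.054 to 0.171, and stayed below the threshold without agrin siRNA replicates 2 or 3.

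Among the members grouped under cell death, 9 of 12 rose, 0 fell and 3 did not pass. TP53I3, a quinone oxidoreductase that makes reactive oxygen species, had the largest log2 fold change of all members in the main test. It was at 39.0, 38.9 and 39.6 scaled CPM in the controls and at 59.9, 62.1 and 64.5 with the agrin siRNA (log2 fold change 0.66 ± 0.04 SE, limma adjusted p = 1.48e-05). Both groups were tight, and the gap between them was larger than the spread within either. The death receptor FAS holds a pair shown above, next to an annotated start inside the gene. FAS was at 51.0, 49.6 and 50.7 in the controls and at 67.3, 79.9 and 73.7 with the agrin siRNA (0.54 ± 0.06 SE, limma adjusted p = 0.000266). TNFRSF10A, a receptor of the ligand TRAIL, had the fewest reads of all members, 135 to 292 per library. It was at 3.91, 3.43 and 3.99 in the controls and at 5.16, 6.54 and 6.63 with the agrin siRNA, with no overlap (0.62 ± 0.11 SE, limma adjusted p = 0.00262). By group means TNFRSF10A rose by 61.8%, more than TP53I3 at 58.8%. Its log2 fold change was also the larger with edgeR (0.686 against 0.658) and DESeq2 (0.692 against 0.664). The other TRAIL receptor, TNFRSF10B, was at 186 ± 5.28 and 212 ± 7.50 (SD, n = 3) and rose with a smaller fold change (0.19, limma adjusted p = 0.00754).

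**Figure D3:**
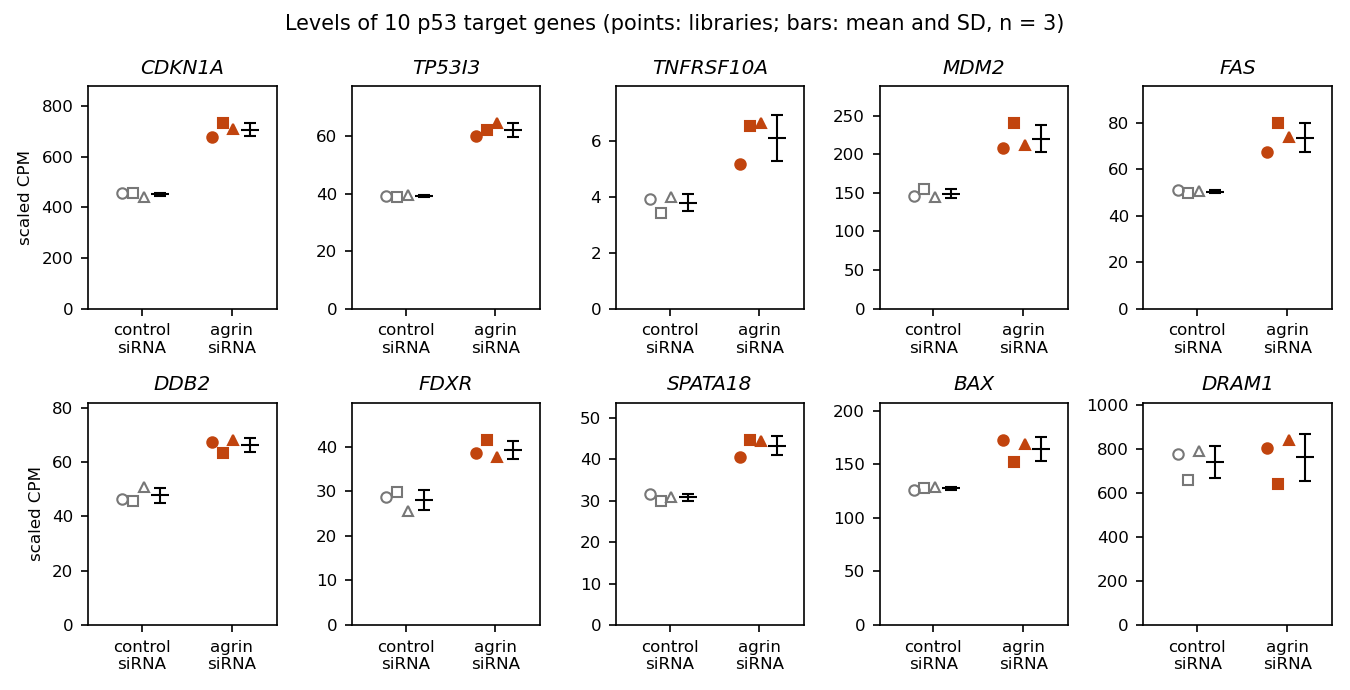
Scaled CPM of 10 p53 targets in each control siRNA (open) and agrin siRNA (filled) library, 1 shape per replicate number, with the mean and SD of each group (n = 3) beside the points; the vertical axes start at 0. In 9 panels the groups are apart, from CDKN1A with means of 451 and 707 to BAX with 127 and 164, and in DRAM1 they overlap.

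Members of the mitochondrial arm of apoptosis and other death genes came next. BAX, which forms pores in the outer mitochondrial membrane, was at 126, 128 and 129 in the controls and at 173, 152 and 169 with the agrin siRNA, where replicate 2 was lowest but still above every control (0.36 ± 0.05 SE, limma adjusted p = 0.000869). BBC3 (PUMA), which frees BAX from its inhibitors, was at 25.3 ± 0.804 and 28.7 ± 2.03 (0.17, limma adjusted p = 0.0538) and passed without agrin siRNA replicate 2 (adjusted p = 0.018). TRIAP1, a small protein that restrains apoptosis, rose from 38.5 ± 1.13 to 49.5 ± 2.34 (0.36). AEN, a nuclease of apoptotic DNA breakdown, rose from 64.3 ± 1.15 to 80.1 ± 2.72 (0.31), and PHLDA3, a repressor of AKT signalling, from 124 ± 4.81 to 149 ± 5.99 (0.26). NINJ1, which mediates membrane rupture of dying cells, rose from 41.1 ± 1.53 to 49.1 ± 4.43 (0.25, limma adjusted p = 0.0204), a call that ended when control replicate 2, control replicate 3 or agrin siRNA replicate 3 was left out (adjusted p = 0.0712, 0.0814 and 0.0866).

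DRAM1 and TP53INP1, which link p53 to autophagy, did not pass. DRAM1 was the most abundant member, also per kilobase of exon, at 779, 659 and 793 scaled CPM in the controls and at 807, 643 and 845 with the agrin siRNA. The lowest library of each group was replicate 2, and the groups overlapped throughout (log2 fold change 0.04, 95% interval -0.20 to 0.27, limma adjusted p = 0.827). TP53INP1 was at 43.1 ± 2.82 and 39.3 ± 2.51 (-0.13, limma adjusted p = 0.146), and without agrin siRNA replicate 2 it passed as lower (-0.18, adjusted p = 0.0232).

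Of the 4 DNA repair genes, 2 rose and 2 did not pass. DDB2, the damage sensor that starts repair of ultraviolet lesions in chromatin and carries the pair with 0 mismatches, was at 46.5, 45.8 and 51.0 in the controls and at 67.2, 63.3 and 68.3 with the agrin siRNA (0.47 ± 0.05 SE, limma adjusted p = 0.000295). XPC, the sensor that acts after DDB2 in the same pathway, was at 126, 132 and 125 and at 133, 127 and 127, with overlapping groups (0.01, 95% interval -0.08 to 0.10, limma adjusted p = 0.898). RRM2B, the p53-induced subunit of ribonucleotide reductase, was at 82.6, 81.0 and 77.2 in the controls and at 83.5, 105 and 96.6 with the agrin siRNA. Replicate 1 of the agrin siRNA group lay just above the highest control (0.24, limma adjusted p = 0.0406), and the call was lost without each control library or agrin siRNA replicate 3, with adjusted p from 0.086 to 0.139, and also under the rescaling described above (adjusted p = 0.0567). POLH, the polymerase that copies past ultraviolet lesions, was at 26.1, 25.6 and 24.0 in the controls and at 22.9, 31.5 and 26.0 with the agrin siRNA, so that agrin siRNA replicate 1 was below and replicate 2 above every control (0.07, limma adjusted p = 0.615).

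Metabolic and stress genes rose in 5 of 6 cases and 1 did not pass. FDXR, the mitochondrial ferredoxin reductase, was at 28.7, 29.9 and 25.5 in the controls and at 38.6, 41.6 and 37.7 with the agrin siRNA (0.48 ± 0.07 SE, limma adjusted p = 0.000831). SPATA18, a regulator of mitochondrial quality, was at 31.6, 30.0 and 31.0 and at 40.6, 44.8 and 44.4 (0.48 ± 0.05 SE, limma adjusted p = 0.000218). In both genes all agrin siRNA libraries were clearly above the controls. TIGAR, which lowers the flux through glycolysis, rose from 30.9 ± 1.75 to 38.2 ± 2.33 (0.30), and SESN1, a sestrin that restrains mTORC1, from 33.7 ± 1.26 to 42.9 ± 1.96 (0.34). SESN2, the other sestrin in the list and also a target of the amino acid response factor ATF4, was at 41.6 ± 1.95 and 41.8 ± 2.23 (0.01, 95% interval -0.12 to 0.13, limma adjusted p = 0.935). GDF15, a secreted stress cytokine of the TGF-beta family, was at 100.4, 86.2 and 94.6 in the controls and at 141, 97.5 and 138 with the agrin siRNA. Agrin siRNA replicate 2 lay within the controls (0.40 ± 0.12 SE, limma adjusted p = 0.0381). Without that library the log2 fold change was 0.57, and leaving out any 1 of the other 5 libraries ended the call, with adjusted p from 0.0664 to 0.139.

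Of the feedback genes, 2 of 3 rose. MDM2 was at 146, 156 and 145 in the controls and at 208, 240 and 211 with the agrin siRNA, a rise of 47.8% (0.56 ± 0.06 SE, limma adjusted p = 0.000184). PPM1D, the phosphatase WIP1 that switches off p53 and its kinases, was at 28.6, 29.0 and 28.0 and at 32.3, 34.2 and 34.4 (0.23 ± 0.05 SE, limma adjusted p = 0.00565). All agrin siRNA libraries of both genes were above the controls. MDM4, the relative of MDM2 that inhibits p53 without ubiquitin ligase activity of its own, was at 12.3, 12.1 and 12.6 and at 14.6, 12.2 and 13.9 (0.13, limma adjusted p = 0.221), and passed without agrin siRNA replicate 2 (0.20, adjusted p = 0.026).

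Related members were set against each other by their ratio within each library, which does not depend on the scaling. In each pair the first gene also had the larger log2 fold change given above. The ratios thus restate those values and are not separate evidence. The ratio of MDM2 to MDM4 went from 12.1 ± 0.693 to 16.4 ± 2.95 (SD, n = 3), that of SESN1 to SESN2 from 0.810 ± 0.00835 to 1.03 ± 0.0370, and that of TNFRSF10A to TNFRSF10B from 0.0203 ± 0.00126 to 0.0287 ± 0.00334. In these 3 pairs all agrin siRNA libraries were above all controls, and the two-sided exact permutation p was 0.1, the smallest that 3 libraries against 3 can give (0.133 after Benjamini-Hochberg adjustment over 4 pairs). The ratio of PLK3 to PLK2 overlapped between the groups, at 0.174 ± 0.0137 and 0.206 ± 0.0339 (exact permutation p = 0.3).

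**Figure D4:**
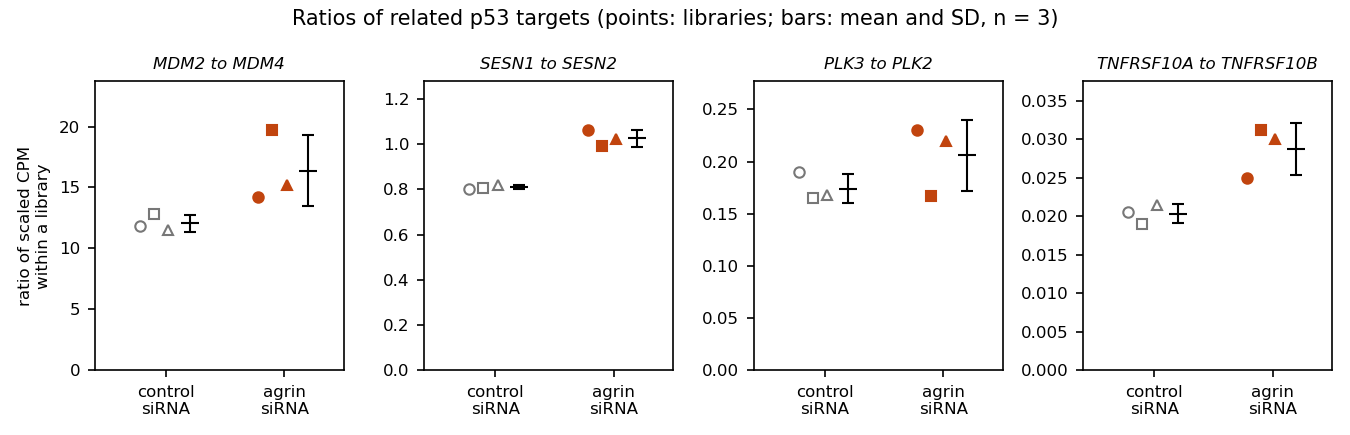
Ratio of the scaled CPM of related p53 targets within each library (not corrected for length), control siRNA open and agrin siRNA filled, with the mean and SD of each group (n = 3). The groups are apart for MDM2 to MDM4, SESN1 to SESN2 and TNFRSF10A to TNFRSF10B, and agrin siRNA replicate 2 falls among the controls for PLK3 to PLK2.

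The agrin siRNA replicates agreed on the overall shift and differed gene by gene. Relative to the control mean, the median over the 33 members on the log2 scale was 0.33, 0.33 and 0.29 with the agrin siRNA and 0.02, 0.01 and -0.03 for the controls, in replicate order. Replicate 2 was the highest agrin siRNA library in 14 members, among them CDKN1A, GADD45A, FAS, MDM2, RRM2B and POLH, and the lowest in 10, among them BAX, BBC3, NINJ1, PLK3, MDM4 and GDF15. Those shares, 42.4% and 30.3%, stand beside 38.6% and 38.9% over all tested genes. Replicate 1 was the highest agrin siRNA library in 9 members and the lowest in 15 (27.3% and 45.5%, beside 38.7% and 36.8% over all tested genes). Replicate 3 lay between the others in 45.5% of members and 52.9% of all tested genes. Replicates 1 and 2 were thus about equally often extreme over the whole table.

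Reads of some members could be shared with overlapping genes, and the labels give no strand setting for the counting. In GENCODE release 29, the readthrough gene AC008012.1 covers 42.6% of the exon bases of TIGAR on the same strand, AC096677.2 covers 19.1% of those of PHLDA3, and the processed pseudogene AC025423.2 covers 3.3% of those of MDM2. These 3 were higher too (log2 fold changes 0.32, 0.30 and 0.61, limma adjusted p = 0.00491, 0.027 and 0.000151), so their reads and those of the members are uncertain; the AC096677.2 call was lost without control replicate 1 or 3 or agrin siRNA replicate 3, with adjusted p up to 0.108. ACTA2, which overlaps 8.9% of the exon bases of FAS on the opposite strand, was at -0.05 (limma adjusted p = 0.404), and the antisense gene AC093495.1 covers 23.8% of the exon bases of XPC.

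p53 is regulated mainly as a protein, and protein was not measured here. Of 30 tested genes on a list of p53 and its regulators, 3 were higher and 7 lower (10% and 23.3%, beside the same 15.2% and 13.5%), with a median of -0.05. The higher ones included DAXX, a chaperone of MDM2 and histones, at 0.27, and the checkpoint kinase CHEK1 at 0.26. The lower ones included the ubiquitin ligase TRIM24, which targets p53, at -0.30, and the methyltransferase SETD7 at -0.28; the TRIM24 call was lost without control replicate 2.

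Other p53 targets, from a longer list that was, like the members, chosen with earlier results of these data known, were more often higher than lower. Of 66 tested, 28 were higher and 8 lower (42.4% and 12.1%, beside 15.2% and 13.5% of all tested genes), with a median of 0.09. RRAD, a small GTPase, rose from 2.49 ± 0.459 to 6.99 ± 0.569 scaled CPM (1.33), the decoy TRAIL receptor TNFRSF10C from 4.10 ± 0.503 to 7.93 ± 1.19 (0.87) and the repressor E2F7 from 13.1 ± 0.713 to 23.3 ± 3.95 (0.79). IGFBP3, which binds insulin-like growth factors and is also controlled by TGF-beta, fell from 1714 ± 120.4 to 839 ± 224 (-1.06). Cell death genes on this list went different ways. PMAIP1 was lower (-0.26, limma adjusted p = 0.00411), PIDD1 was higher (0.53, limma adjusted p = 0.000394), and APAF1 and PERP did not pass. These cell death genes were named after their values were seen.

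**Figure D5:**
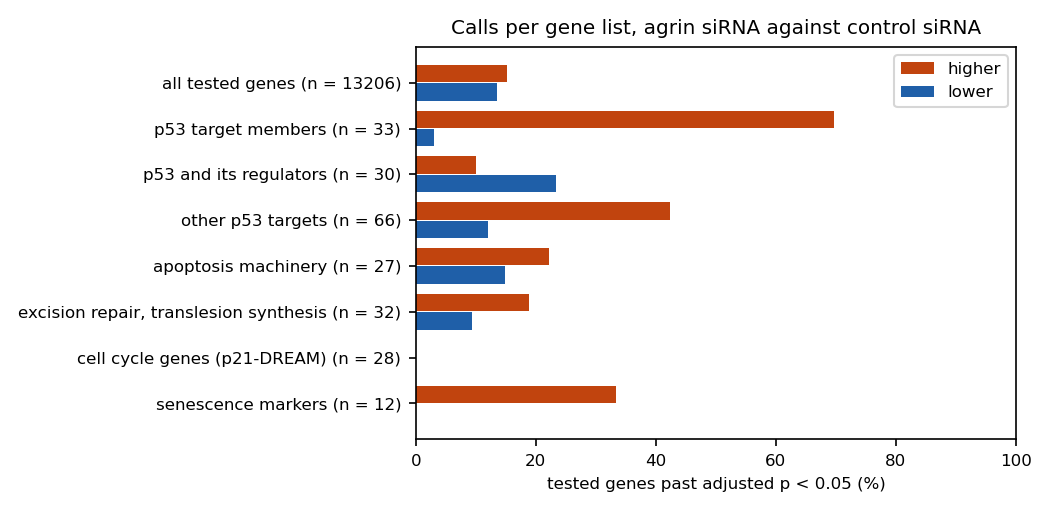
Share of tested genes called higher or lower (limma adjusted p under 0.05) with the agrin siRNA, for all tested genes, the 33 p53 targets and the lists of related genes, with the number tested in brackets. The members stand at 69.7% higher and 3.03% lower, beside 15.2% and 13.5% for all tested genes, and the cell cycle list has no bar because 0 genes passed.

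Of 27 tested genes that carry out apoptosis, 6 were higher and 4 lower (22.2% and 14.8%, beside 15.2% and 13.5% of all tested genes), with a median of 0.03. TNFSF10, the ligand TRAIL, rose from 4.05 ± 0.663 to 7.63 ± 1.22 scaled CPM (0.84, limma adjusted p = 0.00171), and CASP10, an initiator caspase, was at 0.40 (adjusted p = 0.0211; lost without control replicate 1 or 3 or agrin siRNA replicate 3). BMF, a BH3-only activator of apoptosis, fell from 15.9 ± 1.70 to 8.91 ± 1.81 (-0.81), and CASP9, the caspase of the apoptosome, from 9.61 ± 0.542 to 7.67 ± 0.178 (-0.31). Excision repair and translesion synthesis genes beyond the members had 6 of 32 higher and 3 lower (18.8% and 9.38%, again near the shares of all tested genes), with a median of 0.00. CETN2, the centrin that stabilises XPC, was at 0.32, RPA3, a subunit of replication protein A, at 0.34, the ubiquitin ligase scaffold CUL4B at -0.23 and the TFIIH subunit GTF2H4 at 0.19. The CUL4B call ended without control replicate 1 or 2 or agrin siRNA replicate 3, and the GTF2H4 call (limma adjusted p = 0.0493) in 12 of the 14 alternatives tried, those that left out any 1 library among them.

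Cell cycle genes known to be repressed through p21 and the DREAM complex did not pass the test 1 by 1. Of 28 tested, 0 were higher and 0 lower by limma, beside 15.2% and 13.5% of all tested genes. An unadjusted limma p under 0.05 was reached by 3. edgeR called 0, DESeq2 called 2 lower, and the rescaling described above gave 1 lower. The median was -0.15. TOP2A, the topoisomerase of dividing cells, was at 143, 163 and 157 scaled CPM in the controls and at 103, 175 and 122 with the agrin siRNA, so that replicate 2 stood above every control and replicates 1 and 3 below (-0.24, limma adjusted p = 0.267). TPX2, a spindle assembly factor, was at 67.3, 74.1 and 75.1 and at 56.2, 74.3 and 59.4 (-0.20, adjusted p = 0.145). Without agrin siRNA replicate 2, 20 of the 28 were lower and the median was -0.30, and without agrin siRNA replicate 1 the counts were 0 and the median -0.03. Among 12 tested senescence markers, 4 were higher (33.3%) and 0 lower, with a median of 0.07. HMGA2 (0.76) and HMGA1 (0.46), architectural chromatin proteins, and the chemokine CXCL8 (0.64) were among those that rose. CDKN2A, which encodes the inhibitor p16 and the MDM2 antagonist ARF, was at 0.03 (adjusted p = 0.788) and LMNB1, a lamin lost in senescence, at -0.28 (adjusted p = 0.0988); these last genes were named after their values were seen.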

How the data were processed

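RNA-seq of 3 control siRNA and 3 agrin siRNA libraries of BJ cells was analysed. The deposited signal is CPM by its name, in 1 column for each library; columns sum to between 1073188 and 1096534, so the authors scaled by another library size, and the values are called scaled CPM. The submitters' processing notes name the tools edgeR, HTSeq, SAMtools and STAR (2.6.1d) and the build hg38; annotation and strand setting are not given. All values (100%, tolerance 0.01 of a read) were whole multiples of 1 step, which gave whole reads; 3 reads correspond to 0.0681 to 0.0761.

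Genes reaching 1 in 3 or more libraries were tested on log2(value + 0.5) with limma 3.58.1 (R 4.3.3; variance trend, no covariate, two-sided, Benjamini-Hochberg), after a test on simulated data. This scale understates changes of low genes. Alternatives were pseudocounts of 0.1 and 1, no filter, median-of-ratios and rescaled values, the replicate block, DESeq2 1.42.0 and edgeR 4.0.16 on recovered reads, and leaving out each library. All replicate pairs differed beyond counting error (chi-square over degrees of freedom from 4.41 to 24.8). The design was set for scaled CPM.

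The members, roles, lists and tests were chosen with earlier results of these data known. Named were all members, AGRN and, per list, up to 4 called genes by size of change, or the top 2 by level where fewer than 2 passed; some genes that this rule takes in are not reported here. Members with an absolute log2 fold change of at least 0.5, and the leading and most abundant of each role, were given per library; others so given were chosen after their values were seen. Exon lengths and positions are from GENCODE release 29 (GRCh38). Figures used matplotlib 3.10.9 in Python 3.11.15.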

Additional observations from a re-analysis of the deposited data

How the results depend on the processing

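Of the 23 members called higher, 20 kept that call in all 14 alternatives; GDF15, RRM2B and NINJ1 lost it in some, and the count ranged from 20 to 25. The count of lower members, 1 in the main test, was 0 with no filter and 0 with the replicate block, and 0 to 2 with single libraries left out. Over all genes the higher calls ranged from 1121 to 2538 and the lower from 940 to 2586 when single libraries were left out. With the replicate number as a block, 24 members were higher (PLK2 was gained, adjusted p = 0.0192) and ZMAT3 was lost (adjusted p = 0.0507), with 1905 genes higher and 1775 lower overall. The cell cycle list then had 6 lower genes. Same-numbered libraries correlated at -0.04, 0.17 and 0.20 in their deviations from the group means. Differently numbered libraries correlated at -0.33 to 0.15, so that 0.17 and 0.20 were the largest values. All were low, and the numbers were not taken to pair the samples.

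Members near 0 changed sign without a call. XPC was at -0.020 after rescaling without mitochondrial and top genes and at -0.0013 with edgeR, SESN2 at -0.021 and -0.0017. With single libraries left out, DRAM1 ranged from -0.050 to 0.155, XPC from -0.014 to 0.032, POLH from -0.048 to 0.179 and SESN2 from -0.032 to 0.043. The cause was not tested. AGRN stayed between -1.49 and -1.41. GDF15 missed the threshold with DESeq2 (adjusted p = 0.0594) and with no filter (0.0999), and RRM2B with no filter (0.0897). With the replicate block the limma adjusted p of GDF15 was 0.00208. Depth limits TNFRSF10A most, the member with the fewest reads (135 to 292 per library).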
